A study of Mus musculus with 8 samples.

Results

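Matrix remodelling enzymes and inhibitors were followed through the transcriptome of isolated mouse retinal pigment epithelium (RPE) at postnatal day 29 (P29). They are 10 named genes, *Timp1*, *Timp2*, *Timp3*, *Mmp2*, *Mmp14*, *Adamts1*, *Adamts9*, *Htra1*, *Sulf1* and *Sulf2*, of the 31053 genes counted in each library, and each symbol matched 1 Ensembl identifier. They were selected on their role and with their counts and log2 fold changes in these same libraries already known, so their values are a description and no p-value is given for them. The intervals and repeated fits printed for them come from the same libraries and are no independent support. The libraries, 4 labelled *Bbs8*+/+ and 4 labelled *Bbs8*-/-, came from age-matched littermate mice of the strain labelled C57/Bl6, untreated, with the sex labelled as not determined. *Bbs8* encodes a subunit of the BBSome, a complex that moves membrane proteins to and from cilia. The allele is carried by the whole animal, so the photoreceptors and all other cells of the *Bbs8*-/- eye lacked the gene as well as the RPE. RNA was read with QuantSeq 3′ sequencing, a method that starts at the poly-A tail and counts transcript ends. Expression is given as CPM (counts relative to the library total) scaled by edgeR's TMM factors and is not divided by transcript length. Where different genes are summed or set beside each other, counts or CPM are meant and not numbers of transcripts.

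The RPE sits on Bruch's membrane, a layered extracellular matrix that it builds together with the choroid, and it faces the interphotoreceptor matrix on its other side. Matrix metalloproteases (MMPs), ADAMTS proteases and the serine protease HTRA1 cut matrix proteins, whereas tissue inhibitors of metalloproteases (TIMPs) bind the active site of MMPs and of some ADAMTS proteases. The extracellular sulfatases SULF1 and SULF2 cut nothing in the protein: they remove 6-O-sulfate groups from heparan sulfate chains and so alter how these chains hold growth factors, Wnt ligands among them. TIMP3 stays bound to the matrix and is a component of Bruch's membrane, and human variants in *TIMP3* and near *HTRA1* are linked to macular disease.

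Among these genes *Sulf2* stood far from the others, with a mean of 3.49 ± 2.18 CPM in the *Bbs8*+/+ and 84.5 ± 7.24 CPM in the *Bbs8*-/- group (SD, n = 4 each). Its upstream sequence is shown because this gene carries the difference. *Sulf2* (ENSMUSG00000006800) lies on the reverse strand of chromosome 2 of GRCm38, from 166073089 to 166155663. The 250 bases before an annotated start of *Sulf2* in RefSeq (GRCm38.p6, chr2:166155684-166155933, reverse strand, written 5′ to 3′) hold 2 motif matches, both in capitals. A match to the letters of the TATA box begins 244 bases before the start. One to the GC box, read on the opposite strand, begins 189 bases before it.
Sulf2 upstream: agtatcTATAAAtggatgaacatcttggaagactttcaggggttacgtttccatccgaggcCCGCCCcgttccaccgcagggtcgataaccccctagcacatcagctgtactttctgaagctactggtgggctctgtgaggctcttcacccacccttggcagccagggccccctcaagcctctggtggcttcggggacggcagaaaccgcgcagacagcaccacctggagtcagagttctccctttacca
The window before the other annotated start of *Sulf2* (chr2:166155286-166155535) held 0 matches to any of the 4 motifs searched. Windows of this kind were found for 8 of the 10 genes, 9 windows in all, and not for *Mmp2* and *Sulf1*. The TATA box (TATAAA) was found on either strand in 2 of the 9 windows and in 12.4% of all 32851 windows, and the GC box (GGGCGG) in 8 of the 9 and in 32.7%. The AP-1 motif TGANTCA and the STAT motif TTCNNNGAA were each found in 0 of the 9 windows, against 6.75% and 7.02% of all windows. A match gives only the letters of the window and does not show that a factor binds there.

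Counts on genes ranged from 2389835 to 3093428 per library, and 3 counts, taken as the floor, correspond to 1.02 to 1.23 CPM after TMM scaling, a limit that covers counting error only. *Ttc8*, the name under which the annotation lists *Bbs8*, had 105, 142, 144 and 116 counts in *Bbs8*+/+ RPE, against 15, 5, 14 and 15 after its loss. The RPE was present in every library, with *Rpe65* at a mean of 4640 CPM in *Bbs8*+/+ and 3916 CPM in *Bbs8*-/- RPE. *Best1*, another RPE marker, was near the floor in both genotypes at 1.06 and 0.937 CPM. Of 10 RPE genes, 2 were up-regulated (*Ttr* and *Slc16a8*) and 3 down-regulated (*Rpe65*, *Rdh5* and *Pmel*; edgeR, adjusted p under 0.05). Their sum, most of it *Ttr*, was 35910 to 36980 CPM in *Bbs8*+/+ and 44420 to 47760 CPM in *Bbs8*-/- libraries. Transcripts of neighbouring tissues were present too, and they differed by genotype. The summed level of 10 rod genes was 51860 to 56120 CPM in *Bbs8*+/+ and 21160 to 21740 CPM in *Bbs8*-/- libraries, that of 10 lens genes 2921 to 3175 against 379.5 to 427.6 CPM, and that of 5 erythrocyte genes 5152 to 5717 against 1985 to 2217 CPM, with every gene of these 3 lists down-regulated (edgeR, adjusted p under 0.05). In bulk samples fewer cells of a type, in the eye or carried over in dissection, and less RNA per cell cannot be told apart. The paper put the photoreceptor genes that it found lower at both of its ages down to contamination by neighbouring tissue. Every library held both *Xist*, made by female cells, and the Y-linked *Ddx3y* (66.7 to 108 CPM), so that none reads as tissue of a single sex, although the methods count each animal as a replicate. The genotypes differed in *Xist*, at 41.3 to 71.1 CPM in *Bbs8*+/+ and 199.6 to 212 CPM in *Bbs8*-/- libraries (log2 fold change 1.78, edgeR adjusted p = 2.23e-13). Of 4 Y-linked genes none passed the threshold by edgeR, 3 overlapped between the genotypes, and *Eif2s3y* was lower in each *Bbs8*-/- library (4.11 to 9.20 against 10.2 to 14.3 CPM, adjusted p = 0.0936). The part of this difference in the sex genes in the results was not tested.

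Of the 10 genes, 9 passed the filter (1 CPM or more in 4 or more of 8 libraries), and *Timp1* did not. In the fit across all genes 1 of the 9 passed an adjusted p of 0.05, *Sulf2*, which was higher in *Bbs8*-/- RPE. This is 11.1% of the tested genes of the group, beside 12.3% of all 12889 genes tested (5.46% up-regulated and 6.8% down-regulated), and nothing is read from it because the same comparison chose the genes. None of the 9 passed it downwards by edgeR, and DESeq2 also called 0. The other 8 had log2 fold changes (*Bbs8*-/- over *Bbs8*+/+, called log2 change) within 0.6 of 0, and over the 9 genes the median was 0.21, beside 0.02 for all genes tested. For 4 of the 9 genes the genotypes did not overlap, 2 with all *Bbs8*-/- libraries higher and 2 with all of them lower. Over all genes tested 16% did not overlap, 7.42% higher and 8.62% lower. The plot by library shows this pattern gene by gene.

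**Figure D1:**
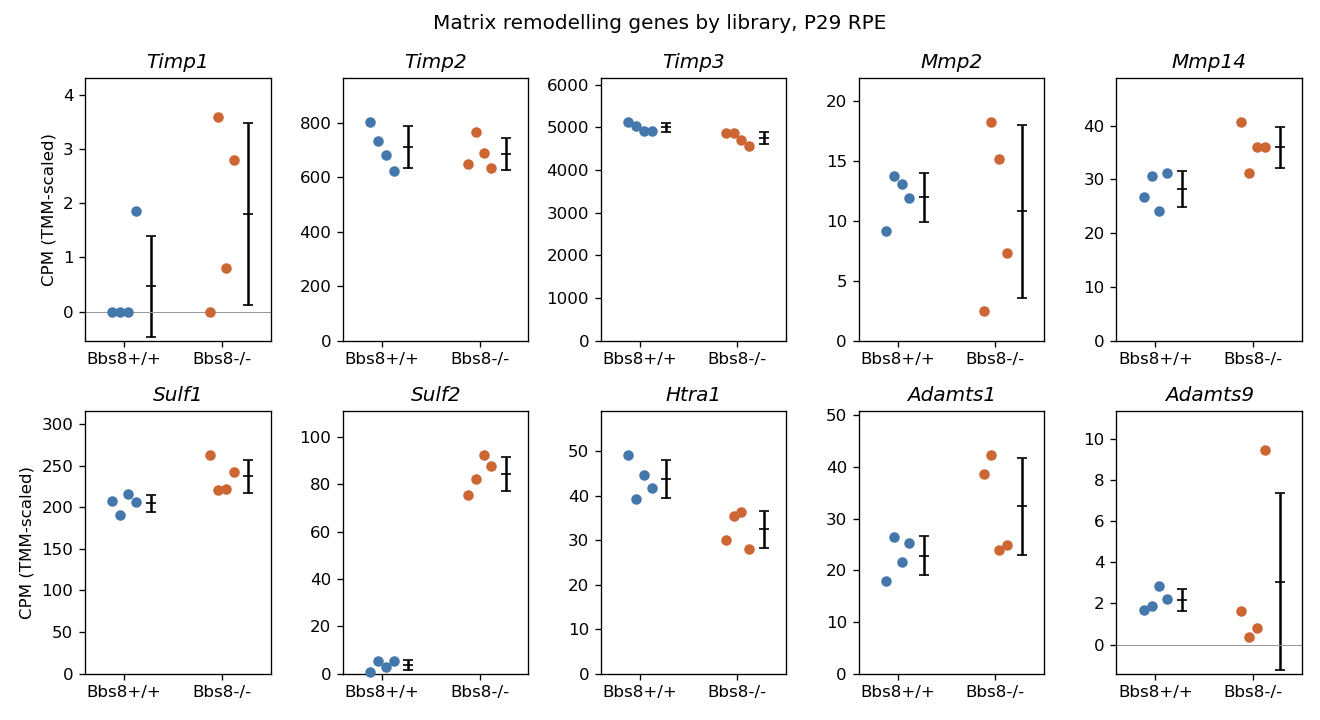
Level of each of the 10 genes in each library, in CPM on a linear axis of its own, with 1 point per library (blue, *Bbs8*+/+; orange, *Bbs8*-/-) and the mean with its SD (n = 4) as a black bar beside the points. *Sulf2* is at 0.677 to 5.22 CPM in the *Bbs8*+/+ and at 75.5 to 92.4 CPM in the *Bbs8*-/- libraries, *Timp2* and *Timp3* lie close together in both genotypes, and the *Adamts9* bar of *Bbs8*-/- RPE rests on 1 library at 9.44 CPM.

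The inhibitors differed little between the genotypes. *Timp3* (ENSMUSG00000020044, chromosome 10, 86300372 to 86349506, forward strand) was at 5123, 5038, 4922 and 4918 CPM in the *Bbs8*+/+ libraries and at 4868, 4875, 4696 and 4565 CPM in the *Bbs8*-/- libraries. All *Bbs8*-/- libraries lay below all *Bbs8*+/+ libraries, by a narrow margin. The means were 5000 ± 98.7 and 4751 ± 149 CPM (SD, n = 4), a log2 change of −0.07 (standard error 0.05, 95% interval −0.17 to 0.02), which did not pass the threshold. *Timp3* lies within the gene *Syn3* on the opposite strand and shares 1733 bp of exon with it, but *Syn3* had at most 8 counts in any library, against at least 11738 for *Timp3*.

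*Timp2* (ENSMUSG00000017466, chromosome 11, 118301069 to 118355740, reverse strand), an inhibitor that also takes part in activating pro-MMP2 on the cell surface, was at 803, 735, 682 and 625 CPM in *Bbs8*+/+ RPE. In *Bbs8*-/- RPE it was at 648, 767, 690 and 636 CPM, within the same range. The log2 change was −0.05 (standard error 0.08, 95% interval −0.22 to 0.11), from means of 711 ± 76.0 and 685 ± 59.4 CPM (SD, n = 4). The small differences of *Timp2* and *Timp3* turned positive, to 0.03 and 0.01, when libraries were scaled by their size alone.

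*Timp1* (ENSMUSG00000001131, chromosome X, 20870166 to 20874735, forward strand), the member of the family that many cells induce in injury, was at the limit of detection. It had 0, 0, 0 and 5 counts in the *Bbs8*+/+ libraries and 0, 10, 2 and 8 counts in the *Bbs8*-/- libraries. The genotypes overlapped, and a difference was not detectable at this depth. The share of *Timp3* among the counts of the 3 inhibitors was 86.4% to 88.7% in *Bbs8*+/+ and 86.3% to 88.3% in *Bbs8*-/- libraries, and the summed level of the 3 was 5545 to 5926 CPM and 5203 to 5646 CPM, with overlap.

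The metalloproteases that TIMPs restrain were near or above the floor and none differed beyond the threshold. *Mmp14* (ENSMUSG00000000957, chromosome 14, 54431612 to 54445364, forward strand), the membrane-bound protease that activates pro-MMP2, was at 26.7, 30.6, 24.1 and 31.2 CPM in *Bbs8*+/+ RPE. In *Bbs8*-/- RPE it was at 40.7, 31.2, 36.0 and 36.0 CPM. The lowest *Bbs8*-/- library reached no further than the highest *Bbs8*+/+ library, and the log2 change was 0.35 (standard error 0.20, 95% interval −0.07 to 0.76). *Mmp2* (ENSMUSG00000031740, chromosome 8, 92827291 to 92853420, forward strand), a gelatinase that cuts type IV collagen, was at 9.14, 13.8, 13.1 and 11.9 CPM in *Bbs8*+/+ RPE. Its *Bbs8*-/- libraries spread from both sides of that range, at 2.46, 18.3, 15.2 and 7.34 CPM. The log2 fold change of *Mmp2* was −0.14 (standard error 0.40), with a 95% interval that holds differences in either direction (−0.94 to 0.67). The sign of this change turned without *Bbs8*-/- library 1 (0.18) or 4 (0.01).

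*Adamts1* (ENSMUSG00000022893, chromosome 16, 85793827 to 85803113, reverse strand), which cuts the proteoglycans aggrecan and versican, was at 17.9, 26.5, 21.7 and 25.3 CPM in *Bbs8*+/+ RPE. It was at 38.6, 42.3, 24.0 and 24.8 CPM in *Bbs8*-/- RPE. Only *Bbs8*-/- libraries 1 and 2 lay above all *Bbs8*+/+ libraries, and libraries 3 and 4 lay among them. The log2 change was 0.51 (standard error 0.24, 95% interval 0.03 to 0.98) before adjustment and did not pass the threshold. *Adamts9* (ENSMUSG00000030022, chromosome 6, 92772699 to 92943492, reverse strand), a versican-cutting relative, had 5, 5, 7 and 6 counts in the *Bbs8*+/+ libraries and 4, 1, 2 and 27 counts in the *Bbs8*-/- libraries. Its higher mean in *Bbs8*-/- RPE, 3.06 ± 4.28 against 2.16 ± 0.517 CPM (SD, n = 4), rested on library 4, without which the log2 change of 0.51 (standard error 0.85) became −1.19.

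*Htra1* (ENSMUSG00000006205, chromosome 7, 130936111 to 130985660, forward strand) was at 49.1, 39.2, 44.6 and 41.6 CPM in *Bbs8*+/+ RPE and at 30.0, 35.5, 36.4 and 27.95 CPM in *Bbs8*-/- RPE. All *Bbs8*-/- libraries lay below all *Bbs8*+/+ libraries, with means of 43.6 ± 4.27 and 32.5 ± 4.13 CPM (SD, n = 4). The log2 change was −0.43 (standard error 0.19, 95% interval −0.81 to −0.04) and did not pass the threshold over all genes. The gene lies within the span of *Fgfr2* on the opposite strand without shared exons. *Htra1* was lower in *Bbs8*-/- RPE with each library left out, at −0.48 to −0.36, and under every other setting, at −0.77 to −0.33.

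The sulfatases gave the one wide difference of the group. *Sulf2* was at 0.677, 5.22, 2.86 and 5.20 CPM in the *Bbs8*+/+ libraries, from 2, 14, 7 and 14 counts, so that *Bbs8*+/+ library 1 was below the floor. It was at 75.5, 82.4, 92.4 and 87.7 CPM in the *Bbs8*-/- libraries, from 184, 230, 231 and 251 counts. The lowest *Bbs8*-/- library was far above the highest *Bbs8*+/+ library, and the ratio of the means was 24.2. The log2 change was 4.60 (standard error 0.27, 95% interval 4.04 to 5.15). It was between 4.23 and 4.87 with each library left out and between 4.26 and 4.70 under the other settings. The end of *Sulf2* overlaps 154 bp of exon of *Ncoa3*, which runs on the opposite strand, and the strand setting of the counting is not given in the sources used here. *Ncoa3* had 22, 43, 30 and 13 counts in the *Bbs8*+/+ and 45, 23, 30 and 37 counts in the *Bbs8*-/- libraries, fewer than *Sulf2* in every *Bbs8*-/- library but more in *Bbs8*+/+ libraries 1, 2 and 3, and its genotypes overlapped. How many of the few *Bbs8*+/+ counts on *Sulf2* came from *Ncoa3* cannot be told.

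*Sulf1* (ENSMUSG00000016918, chromosome 1, 12692277 to 12861192, forward strand), which acts on the same sulfate groups, was at 207.5, 191, 215.4 and 206.6 CPM in *Bbs8*+/+ RPE and at 262.8, 221.4, 222 and 242.2 CPM in *Bbs8*-/- RPE. The genotypes did not overlap, but the gap was narrow. The log2 change was 0.21 (standard error 0.10, 95% interval 0.01 to 0.41) and did not pass the threshold, although it did under scaling by library size alone (0.30). A ratio within a library does not depend on the scaling between libraries. *Sulf2* made up 0.325%, 2.66%, 1.31% and 2.46% of the counts on the 2 sulfatases in *Bbs8*+/+ RPE, against 22.3%, 27.1%, 29.4% and 26.6% in *Bbs8*-/- RPE.

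Some lists of genes named after other cell types differed between the genotypes beside *Sulf2*. A list does not show which cells made its transcripts, and *Rlbp1* stands on both the RPE and the Müller glia list. The list of ocular surface and ciliary epithelium held 7 genes, of which 5 were tested and 3 passed the threshold upwards, *Krt5*, *Krt14* and *Krt15*. Its summed level was 2.37 to 5.58 CPM in *Bbs8*+/+ and 42.3 to 55.2 CPM in *Bbs8*-/- libraries. *Krt5* and *Krt14* were at 0 in all *Bbs8*+/+ libraries, and the corneal keratin *Krt12* was at 0 in all 8 libraries. Of 9 genes of Müller glia and astrocytes, 4 were up-regulated (*Glul*, *Gfap*, *Sox9* and *Apoe*). *Slc1a3*, *Aqp4*, *Kcnj10*, *Rlbp1* and *Vim* were not called, and *Vim* alone was lower (log2 −0.18). The summed level of the 9 was 7387 to 8189 CPM in *Bbs8*+/+ and 8858 to 9439 CPM in *Bbs8*-/- libraries. *Apoe* had the most counts in it, with means of 4110 and 4856 CPM, and *Gfap* was low at 1.07 and 5.77 CPM. The 7 fibroblast genes, of which 2 were down-regulated, summed to 1035 to 1397 and 973 to 1163 CPM. The summed levels overlapped for 7 endothelial genes (25.3 to 34.7 against 28.7 to 36.7 CPM), 7 genes of pericytes and smooth muscle (158 to 192 against 137 to 196 CPM), 8 genes of microglia and macrophages (335 to 440 against 300.5 to 345 CPM) and 6 melanocyte genes (3857 to 4281 against 3880 to 4210 CPM). *Dct* made up most of the melanocyte sum, and 2 of the 6 genes were up-regulated without overlap, *Mlana* (log2 0.54, edgeR adjusted p = 0.0166) and *Tyr* (log2 0.47, adjusted p = 0.00122). Whether these transcripts came from melanocytes or from the RPE, itself a pigmented layer, was not tested. The part of these transcripts, and of the lower rod, lens and erythrocyte transcripts, in the values of *Sulf2* and of the other enzymes and inhibitors was not tested.

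**Figure D2:**
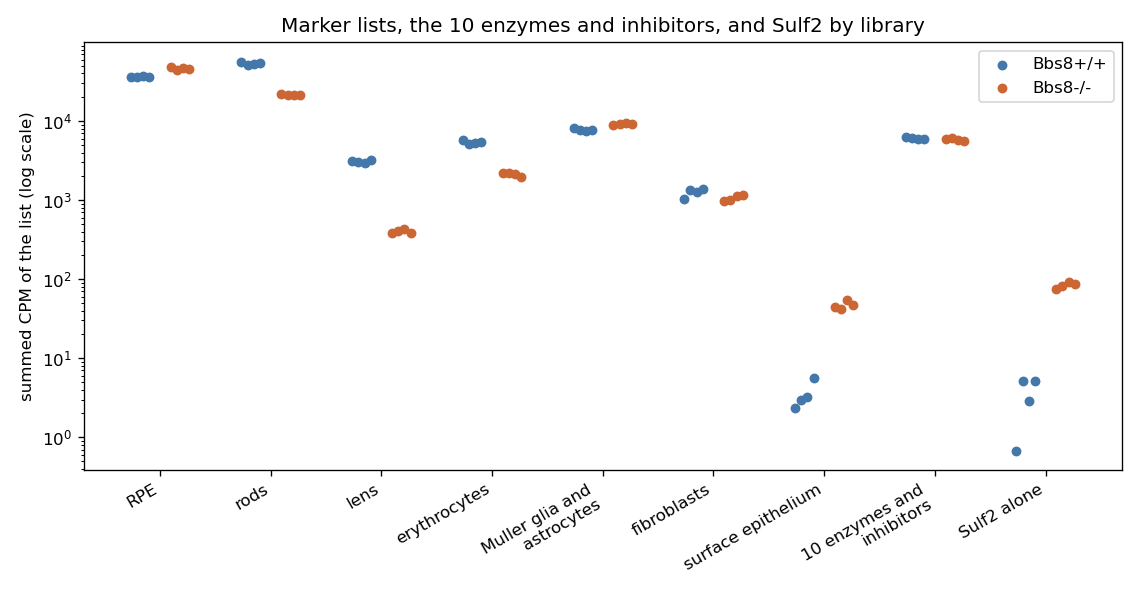
Summed CPM of marker lists, of the 10 matrix remodelling genes and of *Sulf2* alone, on a log axis, with 1 point per library (blue, *Bbs8*+/+; orange, *Bbs8*-/-). Rod, lens and erythrocyte lists are lower in the *Bbs8*-/- libraries, the 10 genes together overlap at 5869 to 6239 and 5639 to 6078 CPM, and *Sulf2* and the surface epithelium list are higher in every *Bbs8*-/- library.

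The sign of some small differences depended on the scaling between libraries. TMM factors were 0.955 to 0.980 for *Bbs8*+/+ and 1.02 to 1.05 for *Bbs8*-/- libraries. The median log2 fold change of all genes moved from 0.02 to 0.11 with library size alone and to −0.32 with the summed counts of 10 RPE marker genes, a list in which *Ttr* had the most counts and was at 20930 CPM in *Bbs8*+/+ and 31750 CPM in *Bbs8*-/- RPE. With the RPE list *Sulf1* turned to −0.13, and *Timp2* (−0.39), *Timp3* (−0.41) and *Htra1* (−0.77) passed the threshold as lower. With *Ttr* left out of that list the median was 0.12 and *Timp2* and *Timp3* turned to 0.04 and 0.03. *Sulf2* and *Htra1* kept their direction under every scaling, as did *Mmp2*, *Mmp14*, *Adamts1* and *Adamts9*.

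**Figure D3:**
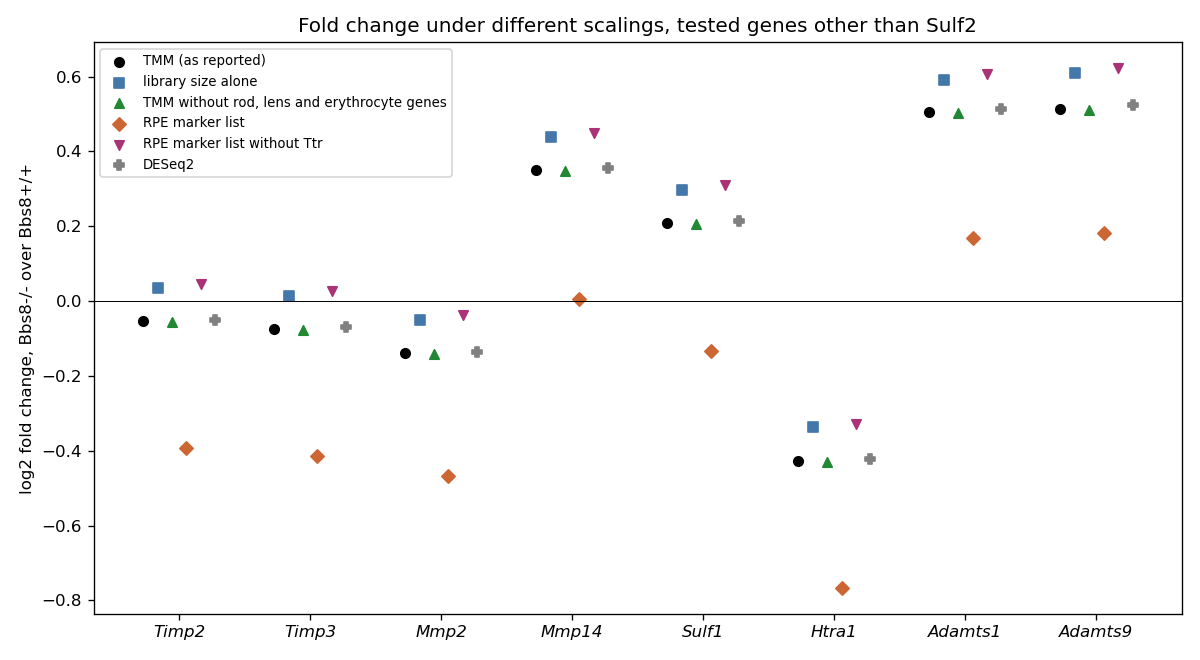
Log2 fold change of 8 genes, *Bbs8*-/- over *Bbs8*+/+, under 6 ways of scaling the libraries, with 1 symbol per scaling and *Sulf2* left out because it lies at 4.26 or above. The orange diamonds, scaled to the RPE list, are the lowest for every gene, and the signs of *Timp2*, *Timp3* and *Sulf1* depend on the scaling.

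The other genes of matrix remodelling were taken as whole families and partner lists, 138 genes, of which 94 passed the filter. Of these, 9 were up-regulated (9.57%, beside 5.46% of all genes tested) and 0 down-regulated (beside 6.8%) at an adjusted p under 0.05 by edgeR. Called in either direction were 9.57%, beside 12.3% of all genes tested. At an unadjusted p under 0.05 by edgeR it was 15 higher and 4 lower, beside 3016 of all 12889 genes tested in either direction. DESeq2 also called 0 downwards. The median log2 fold change was 0.17, beside 0.02 for all genes tested. Of the 94 genes 60 were higher and 34 lower, a split that was not counted over all genes. The genotypes did not overlap for 13.8%, beside 16% of all genes. All 9 genes called were higher in each *Bbs8*-/- library than in any *Bbs8*+/+ library.

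No gene of the families nearest to *Adamts1*, *Adamts9* and *Htra1* was called. Among 12 tested ADAMTS and ADAMTS-like genes *Adamtsl4* stood at a log2 change of −0.22 (adjusted p = 0.304) and *Adamts10* of −0.10 (adjusted p = 0.904), both by edgeR. The sheddases *Adam10* and *Adam17*, which release membrane proteins and are held back by TIMP3, had 0.24 (adjusted p = 0.491) and 0.38 (adjusted p = 0.413), and none of 6 tested ADAM genes passed. *Htra2* (0.16, adjusted p = 0.826) and *Htra3* (−0.90, adjusted p = 0.232) were the HtrA genes tested. Of 7 other MMP and TIMP genes tested 1 passed, *Mmp28*, at 3.60 ± 1.49 and 9.54 ± 1.89 CPM (SD, n = 4), with a log2 change of 1.39 (standard error 0.47, adjusted p = 0.0452). Its call was lost in 9 of 16 other settings, among them those without *Bbs8*+/+ library 1, 2 or 3 (adjusted p = 0.0899, 0.0851 and 0.130) and without *Bbs8*-/- library 2, 3 or 4 (0.0779, 0.129 and 0.0821).

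Of 17 tested activators and inhibitors of matrix proteases, 3 were up-regulated. *A2m*, which encodes a protease-trapping inhibitor, was at 91.4, 103, 134 and 109 CPM in *Bbs8*+/+ and at 1349, 1262, 1211 and 1181 CPM in *Bbs8*-/- RPE, a log2 change of 3.52 (standard error 0.10, adjusted p = 9.83e-27). *Thbs1*, whose product thrombospondin-1 binds MMPs and TGF-beta, had a log2 change of 1.36 (standard error 0.11, adjusted p = 1.21e-12). *Cst3*, the secreted cysteine protease inhibitor cystatin C, had 0.39 (standard error 0.10, adjusted p = 0.00379), and *Bbs8*+/+ library 1 at 3866 CPM lay below the other 3 at 6786 to 7475 CPM. DESeq2 did not call *Cst3* (adjusted p = 0.149).

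The enzymes that build the substrate of the sulfatases did not pass the threshold. Of 15 tested genes of heparan sulfate synthesis and cleavage 0 were called by edgeR, with *Extl2* at 0.38 (adjusted p = 0.184) and *Ndst1*, which starts the sulfation of the chain, at 0.25 (adjusted p = 0.446). Scaling by library size alone called 2 of them upwards. Of 11 tested core proteins that carry these chains 2 were up-regulated, *Gpc3*, a glypican, from 223 ± 22.7 to 317 ± 12.5 CPM (SD, n = 4; log2 fold change 0.51, adjusted p = 1.35e-04), and *Agrn*, encoding agrin of basement membranes, from 12.5 ± 2.86 to 25.0 ± 5.68 CPM (0.99, adjusted p = 0.0119). The call of *Agrn* was lost without *Bbs8*-/- library 3 (adjusted p = 0.0563).

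Of 12 tested genes of collagen processing 2 were up-regulated, and both encode enhancers of procollagen C-proteinase. *Pcolce* was at 169 ± 6.70 CPM in *Bbs8*+/+ and 583 ± 12.6 CPM in *Bbs8*-/- RPE (SD, n = 4; log2 fold change 1.78, adjusted p = 4.88e-19), and *Pcolce2* at 51.2 ± 12.3 and 86.2 ± 11.2 CPM (0.75, adjusted p = 0.00104). Of 12 tested substrates and partners, *Fbln5*, encoding fibulin-5 of elastic fibres, was up-regulated (0.47, adjusted p = 0.00778). Scaled to the RPE list, *A2m*, *Thbs1* and *Pcolce* stayed called, and *Mmp28*, *Cst3*, *Gpc3*, *Agrn*, *Pcolce2* and *Fbln5* did not.

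**Figure D4:**
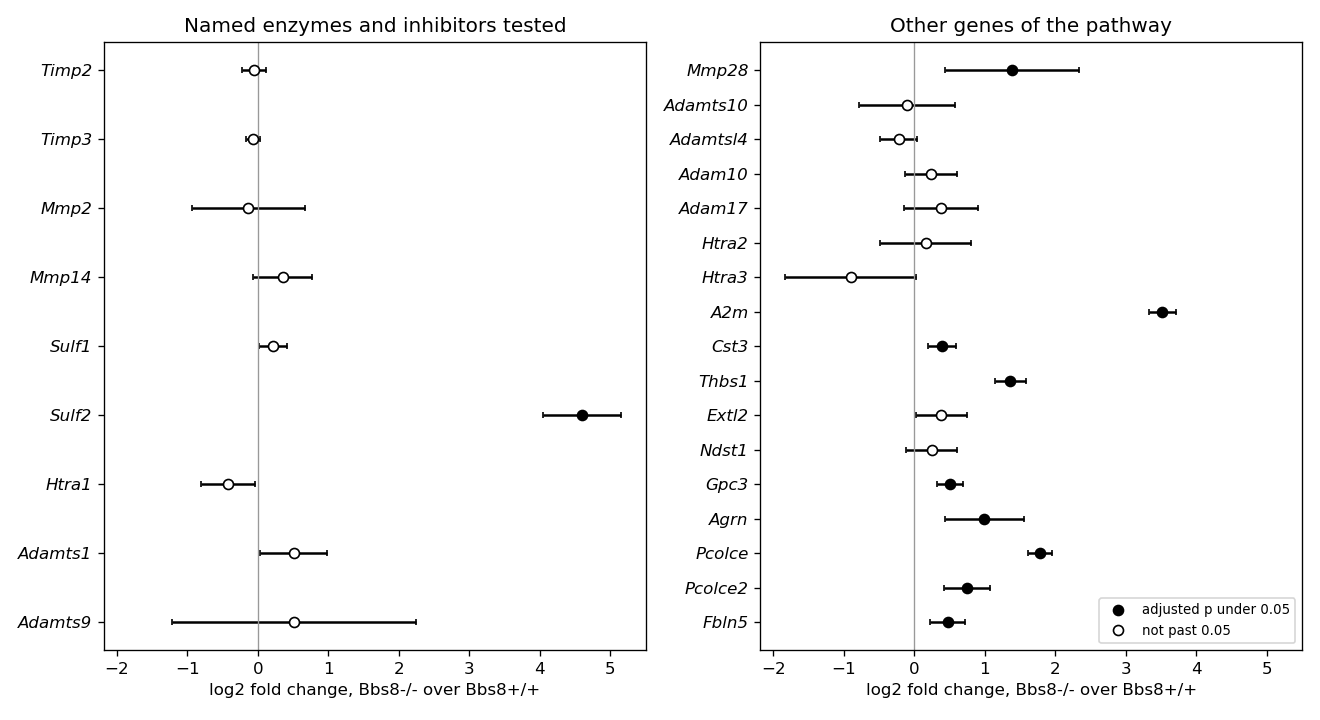
Log2 fold change, *Bbs8*-/- over *Bbs8*+/+, with its unadjusted 95% interval for the 9 tested enzymes and inhibitors (left) and 17 other genes of the pathway (right), filled where the adjusted p was under 0.05. *Sulf2* at 4.60 is the one filled point on the left, and on the right 9 points are filled, led by *A2m* at 3.52.

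**Figure D5:**
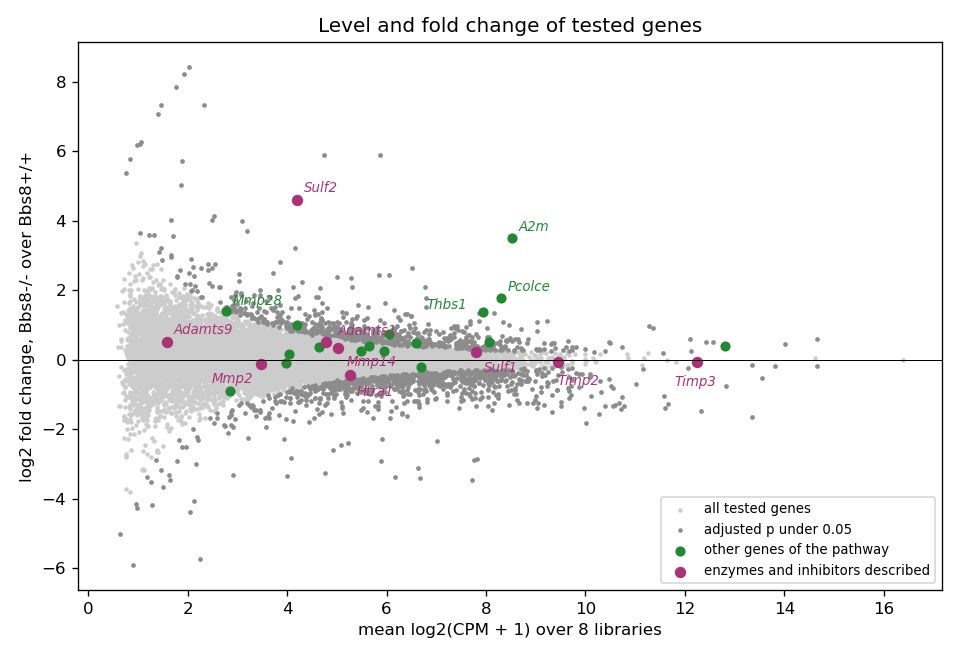
Log2 fold change against mean log2(CPM + 1) over 8 libraries for the 12889 tested genes (light grey; dark grey where the adjusted p was under 0.05), with the enzymes and inhibitors in purple and other genes of the pathway in green. *Sulf2* and *A2m* lie far above the body of genes at their level, whereas *Timp2* and *Timp3* lie at high levels close to the line at 0.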

How the data were processed

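Libraries of isolated RPE, 4 per genotype at P29, were made with the QuantSeq 3′ kit (30 ng RNA each) and read as single ends of 100 bases. The authors trimmed reads, aligned them to mm10 with STAR and deposited raw counts of uniquely mapped reads per gene from htseq-count, with no filter. Reads that did not map uniquely made up 32.8% to 34.5% per library. GRCm38 annotation gave symbols for 30934 of the 31053 identifiers. The analysis used edgeR 4.0.16 and limma 3.58.1 under R 4.3.3, with DESeq2 1.42.0 as an alternative. A gene was kept where 4 or more of the 8 libraries reached 1 CPM, which left 12889 genes. After TMM scaling the genotypes were compared by the two-sided quasi-likelihood test of edgeR, p-values were adjusted by Benjamini-Hochberg over all tested genes, and the threshold was 0.05. Standard errors and 95% intervals came from the same fit and are not adjusted. The study's filter on multi-mapping reads needs alignments and was not used here.

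The genes described and the lists beside them were chosen with earlier results of these data known. Named beyond the 10 genes were, per list, the genes past the threshold, at most 5, and, where none passed, those 2 with the highest mean CPM. Alternatives were other scalings, filters and thresholds, DESeq2, a replicate block and each library left out. Replicates of a genotype differed by more than sampling noise, and each was counted as 1 sample. *Bbs8*+/+ library 1 stood furthest from its group, with a chi-square per degree of freedom of 6.07 to 7.51 against libraries 2, 3 and 4. Among those it was 2.87 to 3.41, and among *Bbs8*-/- libraries 4.17 to 5.05. P-values and intervals measure the spread between these libraries. Every library held transcripts of both sexes, so whether a library came from 1 animal or several is not known. Whether the spread between libraries is that between animals was not tested.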

Additional observations from a re-analysis of the deposited data

Results flagged for a closer look

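Within the 10 genes and the other genes of the pathway named, 54 groups of 4 libraries were examined for a library far from the other 3. Of these 4 were found, where chance gives about 1 in 20. *Ttc8* was not examined in this way. *Timp1* was at 1.86 CPM in *Bbs8*+/+ library 4 and at 0 in the other 3. *Adamts9* was at 9.44 CPM in *Bbs8*-/- library 4 and at 0.358 to 1.64 CPM in the others. *Thbs1* was at 456 CPM in *Bbs8*-/- library 1, against 368 to 380 CPM in the others. *Pcolce* was at 564 CPM in *Bbs8*-/- library 2, against 588 to 592 CPM in the others.

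Reads that fell on no gene, which none of the comparisons use, made up 19.8% to 20.6% of the reads in *Bbs8*-/- libraries and 17% to 18.4% in *Bbs8*+/+ libraries, without overlap.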

How the results depend on the processing

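The comparison was repeated under 9 other settings, 1 of them (the RPE list without *Ttr*) chosen after seeing the data, and with each of the 8 libraries left out. *Sulf2* was called upwards in 16 of 16 refits, which reuse the libraries in which it was chosen and are no independent support. Leaving out a library gave 553 to 645 genes up-regulated and 689 to 847 down-regulated, 1 and 0 of the 10 genes, and 7 to 11 and 0 of the other genes of the pathway, from 704, 877, 1, 0, 9 and 0. It turned the sign of *Timp2* (range −0.11 to 0.010, the latter without *Bbs8*+/+ library 1), *Mmp2* (−0.52 to 0.18, above 0 without *Bbs8*-/- library 1 or 4), *Adamts9* (−1.19 to 0.89, below 0 without *Bbs8*-/- library 4), *Adamts10* (−0.57 to 0.16, above 0 without *Bbs8*+/+ library 1 or *Bbs8*-/- library 1 or 2) and *Htra2* (−0.036 to 0.52, below 0 without *Bbs8*+/+ library 1 or *Bbs8*-/- library 1).

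Library size alone gave 1005 genes up and 657 down, 2 of the 10 genes up (*Sulf2* and *Sulf1*), and turned *Timp2* to 0.034 and *Timp3* to 0.015. The RPE list gave 237 up and 3009 down, 3 of the 10 genes down, 3 other genes of the pathway up and 11 down, and turned *Sulf1* to −0.13, *Adam10* to −0.11, *Htra2* to −0.19 and *Ndst1* to −0.10. Without *Ttr* it gave 1052 up and 625 down, 2 of the 10 genes up, and turned *Timp2* to 0.044 and *Timp3* to 0.026. An adjusted p of 0.01 left 394 up and 571 down. The cause of these changes was not tested beyond the shift of the median that each scaling makes.

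Same-numbered libraries did not deviate together (r = −0.0321, −0.0173, 0.00514 and 0.00672, across genes), and the main fit paired none by number. A pairing of littermates other than by number was not tested. A replicate block gave 650 up and 827 down, kept 1 of the 10 genes, left 8 other genes of the pathway and turned *Adamts9* to −0.25. *Adamts9* was not tested under edgeR's filterByExpr, which kept 10766 genes. A library cannot tell a level below 3 counts from 0, which bears on *Timp1* and *Adamts9*.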
